A study of Arabidopsis thaliana with 12 samples.

Results

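Pectin methylesterases are wall enzymes that remove methyl groups from homogalacturonan, the main chain of pectin. The demethylated stretches can bind calcium and stiffen the wall, or they can be cut by polygalacturonases and pectate lyases, which releases oligogalacturonides that plants sense as a sign of damage. Many of the enzymes are made with an inhibitor-like pro-region that is cut off on the way to the wall, and separate inhibitor proteins hold the mature enzymes in check. In roots the family acts in cell elongation, root hair growth and the response to microbes that attack pectin.

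The family was taken as 60 Arabidopsis thaliana loci given by their locus codes. Of these, 39 had a probe set annotated to them alone and were measured, out of 13286 genes measured in this way, and each had 1 such probe set. The other 21 were not analysed here: 4 of them had a probe set annotated to several genes and 17 had no annotated probe set. Without one were AT3G14310, AT1G53830, AT2G45220 and AT3G10710, all members with a role described in seedlings, roots or immunity. Symbols are those of the array annotation, in which AT4G02330 is ATPMEPCRB, AT2G43050 is ATPMEPCRD, AT5G53370 is PMEPCRF and AT3G59010 is PME61. No sequence is shown, because no sequence table was used.

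Root transcripts of Col-0 seedlings, 7 days old, were measured with ATH1 arrays (Affymetrix) after 3 h with chitin, cellobiose, OGs or no elicitor. Chitin oligomers come from fungal walls, cellobiose is the repeating disaccharide of cellulose, and OGs are the oligogalacturonides that pectin breakdown releases. Each of the 4 groups had 3 biological replicates with 1 array each, and 12 arrays were used in all. Seedlings grew many to a mesh disc, so that a sample pools the roots of several plants, and elicitor doses are not given in the labels.

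Values are log2 probe set intensities as deposited. A change is the difference of 2 groups on the log2 scale from limma's linear model, with its standard error (SE), and a gene was called when its adjusted p, by the Benjamini-Hochberg method over all 22746 probe sets, was under 0.05. A level near or under log2 5 was treated as close to background. Levels of different probe sets depend on their probes and were not compared between genes.

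Arrays of a group correlated at 0.992 to 0.997. OGs replicate 3 stood apart in RNA quality: its 3′ GAPDH probe set exceeded the 5′ one by 1.46 (log2), against 0.357 and 0.54 on the other OGs arrays and 0.729 to 0.835 on the control arrays. Of 8 root markers 2 were measured, and PYK10, an abundant root beta-glucosidase, lay at 13.88 after chitin, 13.76 after cellobiose, 13.78 after OGs and 13.90 in the control. All 5 measured green tissue markers, of 11 listed, fell after chitin, and 2 fell after cellobiose and 2 after OGs (limma). Their mean level was 5.68 to 6.86 on the chitin arrays, 6.51 to 7.45 on the cellobiose arrays, 6.63 to 7.56 on the OGs arrays and 8.02 to 8.79 on the control arrays. The part of green tissue in the results below was not tested, and in whole roots fewer cells of a type and less RNA per cell cannot be told apart.

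Of the 39 measured members, 20 had all 4 group means under log2 5. Their single arrays lay between 3.28 and 4.81 after chitin, 3.34 and 4.68 after cellobiose, 3.41 and 4.80 after OGs, and 3.44 and 4.67 in the control. Among these dim members were AT3G59010, known from the mechanical strength of stems, and AT5G49180, known from seed coat mucilage. The pollen actin gene ACT12, the 1 pollen marker measured of 8, was also under log2 5, at 3.99, 3.98, 4.04 and 4.02 in the 4 groups in the same order. None of the 20 was called in any of the 6 comparisons or by the F test, with a lowest adjusted p of 0.179 (limma, AT3G59010 after chitin). Changes among them against the control lay between -0.21 and 0.24 after chitin, -0.22 and 0.14 after cellobiose, and -0.11 and 0.12 after OGs, and values this close to background compress any change. The other 19 members had at least 1 group mean of log2 5 or more. The members nearest to that line were AT3G05620, with a highest group mean of 5.05, and AT3G24130 and AT5G18990, both with 4.64.

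**Figure D1:**
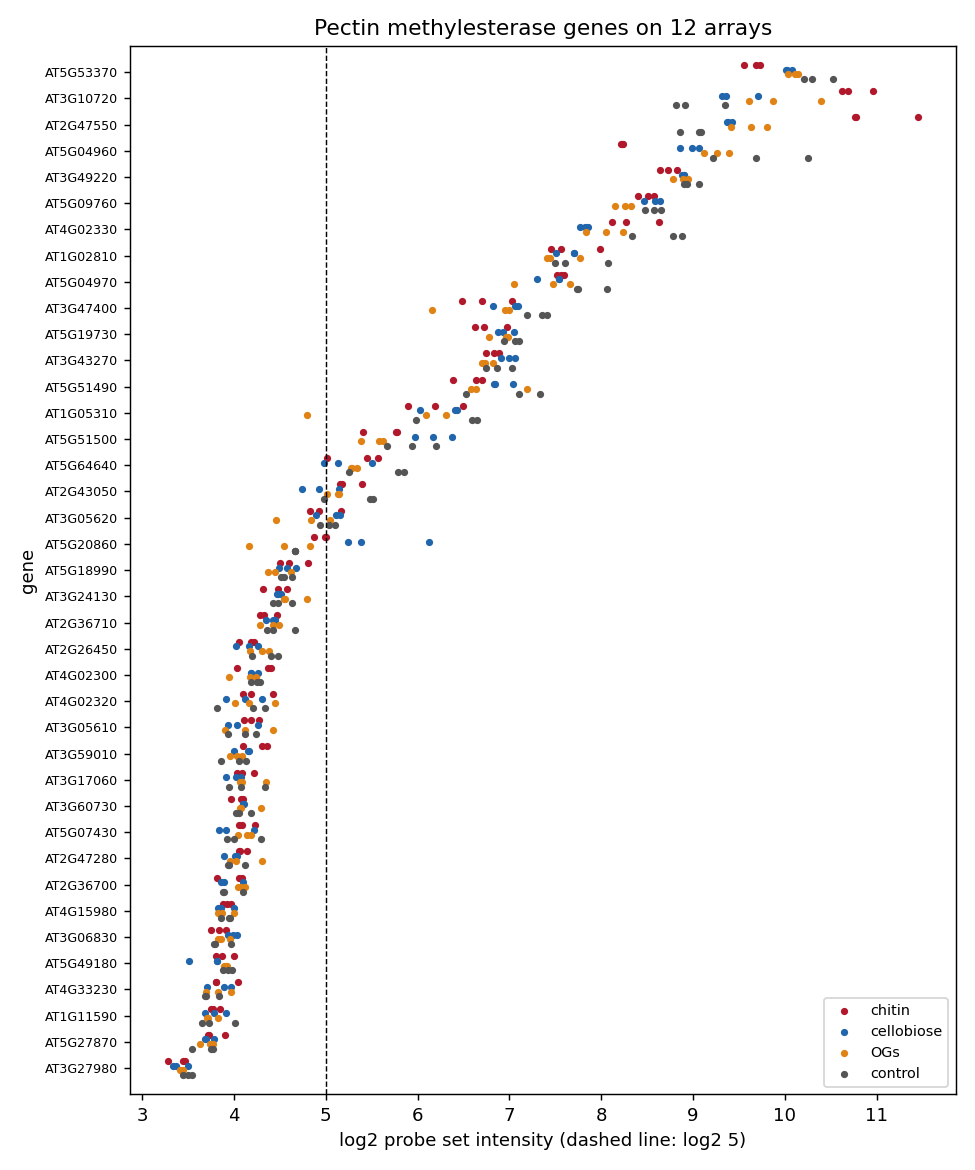
Log2 probe set intensity (horizontal axis) of the 39 measured pectin methylesterase genes (rows, in order of mean intensity) on the 12 arrays, coloured by group with 3 points per group. The dashed line marks log2 5, under which all 4 group means of 20 genes lie; intensities of different genes are not comparable.

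Across the 4 groups 6 members changed by limma's moderated F test, which is 15.4 percent of 39 against 9.76 percent of all probe sets. They were AT2G47550 (adjusted p = 3.27e-05), AT3G10720 (0.000464), AT5G04960 (0.00124), PMEPCRF (0.00216), AT5G20860 (0.0081) and ATPMEPCRB (0.0305). All 6 belong to the 19 brighter members, AT5G20860 only through its cellobiose mean, which also gave its call against the control. Against the control, AT2G47550 and AT3G10720 rose after chitin and OGs, PMEPCRF fell after chitin, AT5G04960 fell after chitin and cellobiose, ATPMEPCRB fell after cellobiose and AT5G20860 rose after cellobiose.

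**Figure D2:**
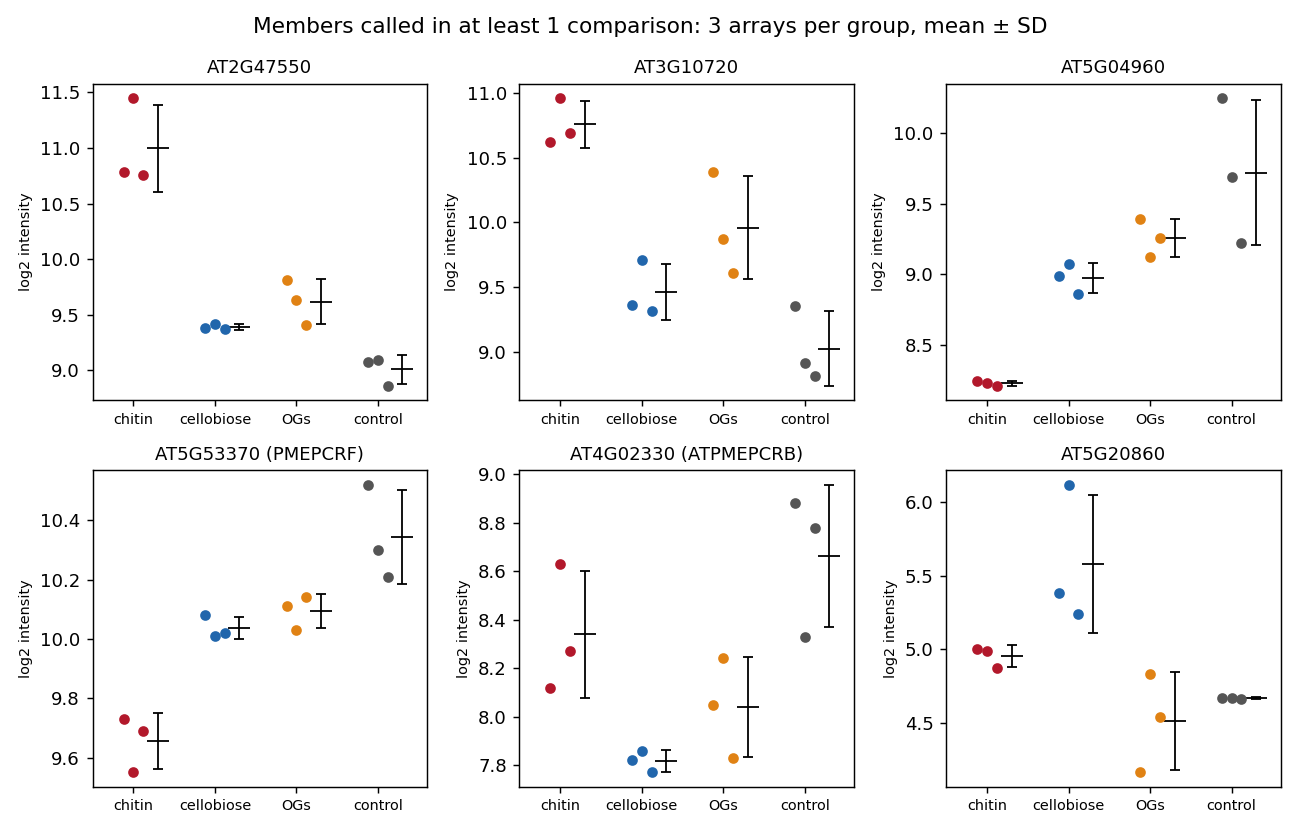
Log2 intensity (vertical axis, scaled per panel) of the 6 members called in at least 1 comparison, by group, with 3 arrays per group as points and the mean ± SD beside them. AT2G47550 and AT3G10720 are highest after chitin, AT5G04960 and PMEPCRF (AT5G53370) lowest after chitin, ATPMEPCRB (AT4G02330) lowest and AT5G20860 highest after cellobiose.

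Chitin gave the largest changes in the family. It raised AT2G47550 by 3.98-fold and AT3G10720 by 3.33-fold, and lowered AT5G04960 by 2.82-fold and PMEPCRF by 1.61-fold. The 4 called members are 10.3 percent of 39 and lie near the background, since 11.0 percent of all probe sets were called after chitin (5.09 percent up and 5.94 percent down).

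AT2G47550 had 10.78, 11.45 and 10.76 on the chitin arrays, 9.38, 9.42 and 9.37 on the cellobiose arrays, 9.81, 9.63 and 9.41 on the OGs arrays, and 9.07, 9.09 and 8.86 on the control arrays. Every chitin array lay above every other array, and every cellobiose and OGs array above every control array. The change after chitin was 1.99 ± 0.14 (SE), with an adjusted p of 7.45e-06 (limma).

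AT3G10720 had 10.62, 10.96 and 10.69 on the chitin arrays, 9.36, 9.71 and 9.31 on the cellobiose arrays, 10.39, 9.87 and 9.61 on the OGs arrays, and 9.35, 8.91 and 8.81 on the control arrays. The chitin and OGs arrays did not overlap the control arrays, while the cellobiose arrays did. The change after chitin was 1.74 ± 0.17 (SE), with an adjusted p of 9.13e-05 (limma).

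AT5G04960, which is known among transcripts enriched in root hair cells, had 8.24, 8.23 and 8.21 on the chitin arrays, 8.99, 9.07 and 8.86 on the cellobiose arrays, 9.39, 9.12 and 9.26 on the OGs arrays, and 10.25, 9.69 and 9.22 on the control arrays. The chitin arrays were tightly grouped under all others, and the control arrays were the most spread, with an SD of 0.51 (n = 3). The fall after chitin was -1.50 ± 0.17 (SE) with an adjusted p of 0.000217 (limma). Of 7 root hair markers 2 were measured. EXPA7, a root hair expansin, changed by 0.07 ± 0.12 (SE, adjusted p = 0.816, limma) after chitin, and EXPA18, another one, fell by 0.38 ± 0.11 (SE, adjusted p = 0.0467, limma). Both were far above background, at 9.42 and 9.17 on average after chitin and 9.35 and 9.55 in the control, and their part in the fall of AT5G04960 was not tested.

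PMEPCRF had 9.73, 9.55 and 9.69 on the chitin arrays, 10.08, 10.01 and 10.02 on the cellobiose arrays, 10.11, 10.03 and 10.14 on the OGs arrays, and 10.52, 10.30 and 10.21 on the control arrays. The control arrays were above all elicitor arrays and the chitin arrays below all others. The fall after chitin was -0.69 ± 0.08 (SE), with an adjusted p of 0.000349 (limma).

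These 4 calls after chitin held with each of the 12 arrays left out in turn. Of the members not called, AT3G49220, linked to the heat response and guard cells, came nearest with -0.23 ± 0.07 (SE, adjusted p = 0.0692, limma): 8.83, 8.64 and 8.73 on the chitin arrays against 9.07, 8.90 and 8.93 on the control arrays, which did not overlap. AT3G47400 stood at -0.58 ± 0.20 (SE, adjusted p = 0.0977, limma), also without overlap, and was called without chitin replicate 3 (-0.87, adjusted p = 0.00623) or OGs replicate 3 (adjusted p = 0.031). ATPMEPCRB stood at -0.33 ± 0.17 (SE, adjusted p = 0.29, limma), and at -0.59 (adjusted p = 0.0148) without control replicate 2, the lowest of the control arrays. Groups did not overlap for 8 of 39 members (20.5 percent), against 25.7 percent of all probe sets. The median change of the 39 members was -0.05, beside -0.03 for all probe sets, and 25 of them lay below 0. The 20 dim members had all group means under log2 5, so a rise past that line was excluded by the grouping. A fall from such a level would be compressed. Among the 19 brighter members 16 lay below 0 (84.2 percent), with a median of -0.23, against 60.3 percent and -0.05 over all probe sets with a group mean of at least log2 5; this is a description, since the brighter members were kept by their measured level.

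**Figure D3:**
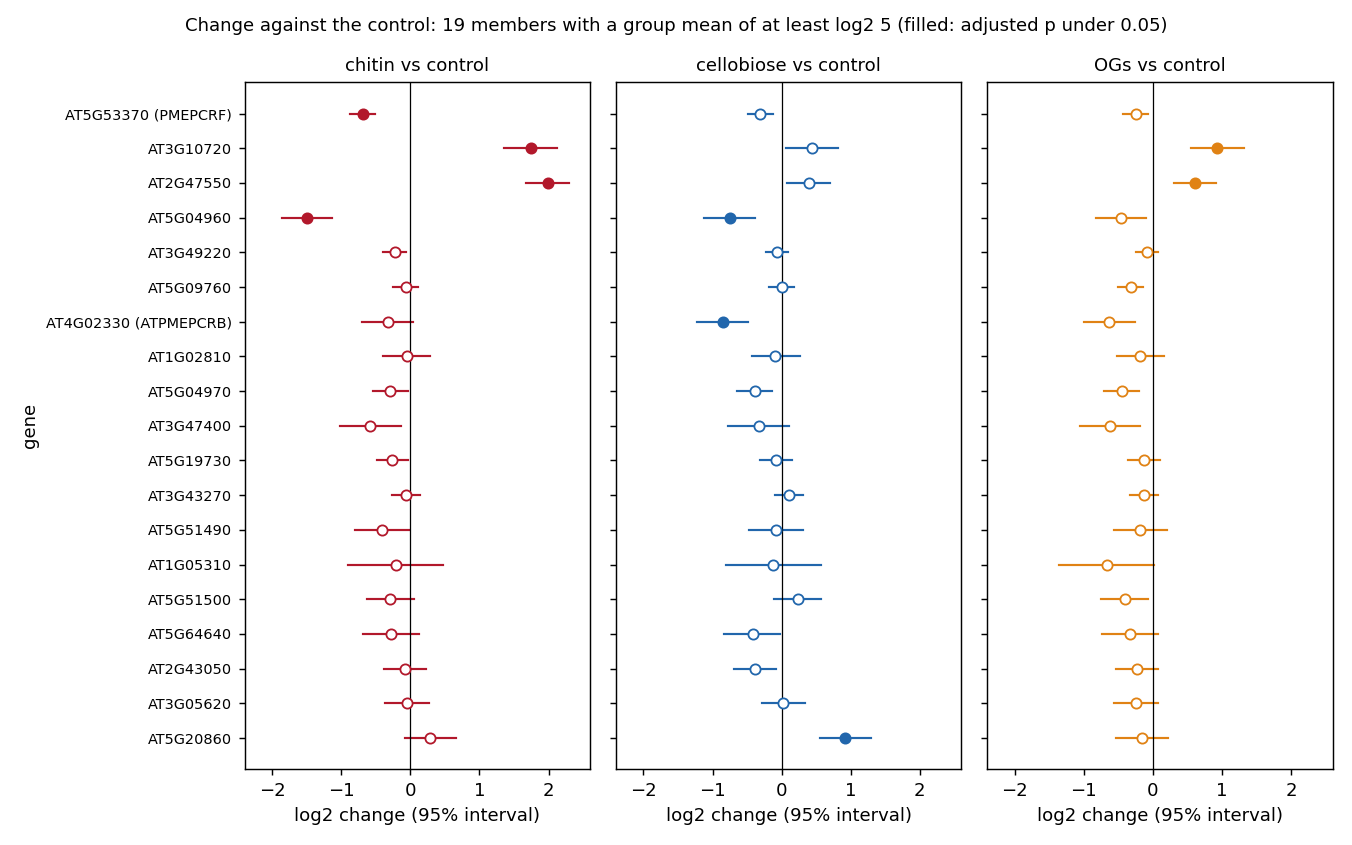
Log2 change against the control (horizontal axis) with its 95% interval for the 19 members with a group mean of at least log2 5, after chitin, cellobiose and OGs; filled points have an adjusted p under 0.05 (limma). After chitin 2 genes lie near 2 and AT5G04960 near -1.5, and after cellobiose and OGs all changes lie within 1 of 0.

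Cellobiose lowered ATPMEPCRB and AT5G04960 and raised AT5G20860, by 1.8-fold, 1.68-fold and at least 1.5-fold. The 3 called members are 7.69 percent of 39, against 2.27 percent of all probe sets (1.54 percent up and 0.725 percent down).

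ATPMEPCRB, known from the response to chilling, had 7.82, 7.86 and 7.77 on the cellobiose arrays, 8.12, 8.63 and 8.27 on the chitin arrays, 8.05, 8.24 and 7.83 on the OGs arrays, and 8.88, 8.33 and 8.78 on the control arrays. The cellobiose arrays were tightly grouped and below all control arrays. The change was -0.85 ± 0.17 (SE), with an adjusted p of 0.0293 (limma). The family members beside it on chromosome 4, AT4G02320 and, further on, AT4G02300, were among the dim members, with changes of -0.02 and -0.03 after cellobiose.

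AT5G04960 was lower by 0.75 ± 0.17 (SE, adjusted p = 0.0469, limma) after cellobiose, and the difference was -1.26, -0.63 and -0.36 in the 3 replicate-number pairs. The genome neighbour AT5G04970 is also a member. It had 7.54, 7.54 and 7.30 on the cellobiose arrays against 8.06, 7.75 and 7.74 on the control arrays. These did not overlap, and the change of -0.39 ± 0.11 (SE) missed the threshold (adjusted p = 0.117, limma).

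AT5G20860 was close to background in every group but cellobiose. It had 5.38, 6.12 and 5.24 on the cellobiose arrays, 5.0, 4.99 and 4.87 on the chitin arrays, 4.16, 4.83 and 4.54 on the OGs arrays, and 4.67, 4.67 and 4.66 on the control arrays. Because the control lay under log2 5, the rise is given as at least 0.58 (log2), at least 1.5-fold, with a fitted 0.92 ± 0.17 (SE, adjusted p = 0.0201, limma). It passed the line at log2 5 only through the cellobiose arrays.

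The 2 genes that chitin raised stood at 0.39 ± 0.14 (AT2G47550, adjusted p = 0.194, limma) and 0.44 ± 0.17 (AT3G10720, adjusted p = 0.232, limma) after cellobiose. PMEPCRF stood at -0.31 ± 0.08 (SE, adjusted p = 0.0849, limma), without overlap with the control. Groups did not overlap for 8 of 39 members (20.5 percent), against 23.0 percent of all probe sets, and the median change was -0.03, beside 0.00 for all probe sets. Among the 19 brighter members 13 lay below 0 (68.4 percent), with a median of -0.08, against 46.3 percent and 0.02 over all probe sets of that level. The cellobiose calls rest on few arrays: 0 of the 39 were called without cellobiose replicate 1 or 2, and 1 without cellobiose replicate 3 or control replicate 1. AT5G04960 was no longer called when any of 10 of the 12 arrays was left out (highest adjusted p 0.186, limma), without the replicate block (0.0546) or with only the 2 groups fitted (0.0562). ATPMEPCRB lost its call without control replicate 1 or 3 or any cellobiose array, and AT5G20860 without control replicate 2 or cellobiose replicate 1 or 2.

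OGs raised AT2G47550 and AT3G10720, both also raised by chitin, and 0 members fell past the threshold. The 2 called members are 5.13 percent of 39, against 2.65 percent of all probe sets (1.61 percent up and 1.04 percent down). These comparisons share the control arrays, so the 2 results are not independent. AT3G10720 was higher by 0.93 ± 0.17 (SE), 1.91-fold, with an adjusted p of 0.0215 (limma), by 1.04, 0.97 and 0.80 in the 3 pairs. AT2G47550 was higher by 0.61 ± 0.14 (SE), 1.53-fold, with an adjusted p of 0.0477 (limma), by 0.74, 0.54 and 0.55 in the 3 pairs.

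At an unadjusted p under 0.05 limma placed 7 of 39 members lower (17.9 percent) after each of the 3 elicitors. Of all 13286 genes 12 percent were lower after chitin, 6.77 percent after cellobiose and 7.41 percent after OGs. Higher at that level were 3 members after chitin (7.69 percent), 3 after cellobiose (7.69 percent) and 2 after OGs (5.13 percent). The shares of all genes were 8.08, 8.51 and 7.23 percent in the same order. None of the 7 members lower after OGs passed the adjusted threshold. ATPMEPCRB stood at -0.63 ± 0.17 (SE, adjusted p = 0.082), AT5G04970 at -0.45 ± 0.11 (adjusted p = 0.0697) and AT5G09760 at -0.32 ± 0.08 (adjusted p = 0.067). The others were AT3G47400 (-0.62), AT5G04960 (-0.46), AT5G51500 (-0.41) and PMEPCRF (-0.25). AT5G09760 had 8.15, 8.26 and 8.32 on the OGs arrays, against 8.58, 8.40 and 8.51 on the chitin arrays, 8.59, 8.47 and 8.64 on the cellobiose arrays and 8.65, 8.48 and 8.57 on the control arrays. All its OGs values lay under all other values. AT1G05310 had the lowest change, -0.67 ± 0.31 (SE, adjusted p = 0.309, limma). It had 6.09, 6.31 and 4.80 on the OGs arrays against 6.59, 6.65 and 5.98 on the control arrays, and its low value came from OGs replicate 3. Also lowest on that OGs array were AT3G47400 (7.00, 6.95 and 6.16), AT5G04970 (7.66, 7.47 and 7.05) and ATPMEPCRB (8.05, 8.24 and 7.83). AT5G09760, AT5G04960, AT5G51500 and PMEPCRF were lowest on another OGs array. The part of RNA quality in these values was not tested. Groups did not overlap for 9 of 39 members (23.1 percent), against 18.0 percent of all probe sets, and the median change was -0.08, beside -0.01 for all probe sets. Among the 19 brighter members 17 lay below 0 (89.5 percent), with a median of -0.24, against 55.6 percent and -0.02 over all probe sets of that level, and the shifts after the 3 elicitors share the control arrays.

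The OGs calls depended on single arrays and on the block. AT2G47550 was no longer called when any of 10 of the 12 arrays was left out (highest adjusted p 0.166, limma), nor without the replicate block (0.0633). AT3G10720 lost its call without control replicate 2, control replicate 3 or OGs replicate 1 (highest adjusted p 0.0741). The count of called members was 3 without chitin replicate 3 and 0 without OGs replicate 1. It was 1 without each control array, each cellobiose array, OGs replicate 2 or OGs replicate 3; without control replicate 2 that gene was ATPMEPCRB (-0.89, adjusted p = 0.0074), and without control replicate 3 it was AT5G04960 (-0.69, adjusted p = 0.0351).

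The elicitors were also compared with each other, which does not involve the control arrays other than through the shared fit. OGs and chitin differed in 4 members, 10.3 percent of 39 against 3.57 percent of all probe sets (1.42 percent up and 2.15 percent down). AT2G47550 was lower after OGs than after chitin by 1.38 ± 0.14 (SE, adjusted p = 0.000283, limma) and AT3G10720 by 0.80 ± 0.17 (SE, adjusted p = 0.0284). AT5G04960 was higher after OGs by 1.03 ± 0.17 (SE, adjusted p = 0.00593) and PMEPCRF by 0.44 ± 0.08 (SE, adjusted p = 0.0138). The OGs and chitin arrays did not overlap for any of these 4 genes. Over the family the groups did not overlap for 8 of 39 members (20.5 percent), against 21.4 percent of all probe sets. The count was 2 without chitin replicate 2, OGs replicate 2 or OGs replicate 3.

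Chitin and cellobiose differed in the same 4 members, 10.3 percent of 39 against 5.45 percent of all probe sets (2.93 percent up and 2.51 percent down). AT2G47550 was higher after chitin by 1.61 ± 0.14 (SE, adjusted p = 6.53e-05, limma) and AT3G10720 by 1.30 ± 0.17 (SE, adjusted p = 0.00127). AT5G04960 was lower by 0.74 ± 0.17 (SE, adjusted p = 0.027) and PMEPCRF by 0.38 ± 0.08 (SE, adjusted p = 0.0226). AT5G20860 came close, at -0.63 ± 0.17 (SE, adjusted p = 0.0583). The count was 2 without chitin replicate 1, chitin replicate 2, cellobiose replicate 2 or cellobiose replicate 3, each time AT2G47550 and AT3G10720. Groups did not overlap for 13 of 39 members (33.3 percent), against 29.3 percent of all probe sets. These differences and those between OGs and chitin share the chitin arrays.

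OGs and cellobiose differed in AT5G20860 alone among the 39, which is 2.56 percent against 1.31 percent of all probe sets (0.567 percent up and 0.747 percent down). It was lower after OGs by a fitted 1.07 ± 0.17 (SE, adjusted p = 0.0103, limma), at least 0.58 with the OGs arrays raised to log2 5. The interval of the difference, at the 95 percent level, was -0.08 to 0.54 for AT2G47550, 0.11 to 0.88 for AT3G10720, -0.08 to 0.65 for AT5G04960, -0.12 to 0.24 for PMEPCRF and -0.15 to 0.59 for ATPMEPCRB. Groups did not overlap for 7 of 39 members (17.9 percent), against 19.1 percent of all probe sets. AT5G51500 stood at -0.65 ± 0.15 (SE, adjusted p = 0.0856): it had 5.38, 5.58 and 5.62 on the OGs arrays, against 5.97, 6.37 and 6.17 on the cellobiose arrays, which did not overlap. It was called without chitin replicate 2 (adjusted p = 0.0203) or control replicate 3 (0.0381), which made the count 2, and without OGs replicate 1 the count was 0. Its neighbour AT5G51490, with 7.19, 6.58 and 6.64 on the OGs arrays and 6.83, 7.04 and 6.84 on the cellobiose arrays, stood at -0.10 ± 0.18 (SE, adjusted p = 0.877).

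**Figure D4:**
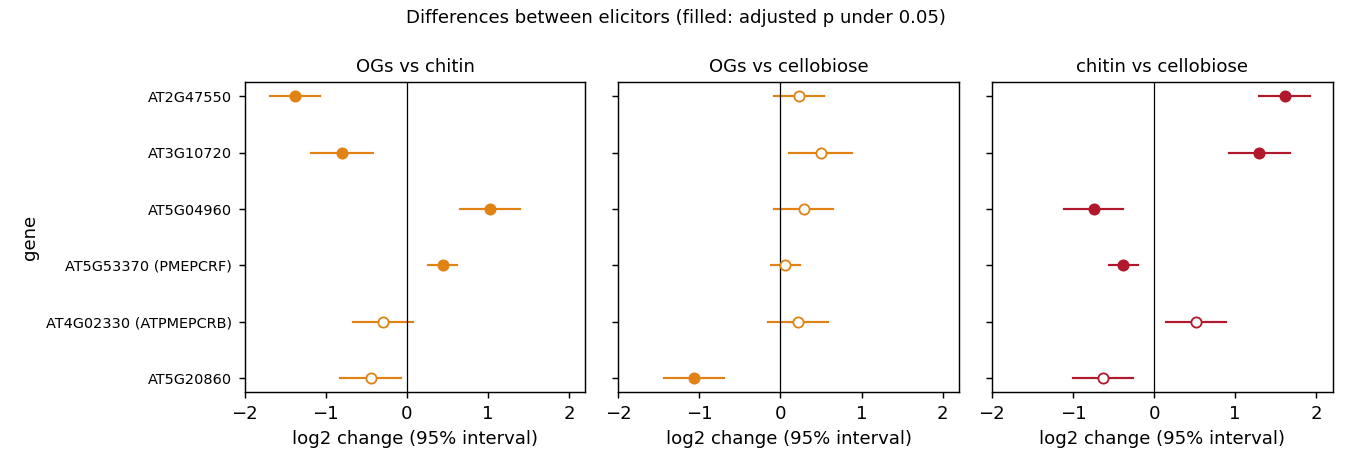
Log2 difference between elicitors (horizontal axis) with its 95% interval for the 6 called members; filled points have an adjusted p under 0.05 (limma). AT2G47550 and AT3G10720 are higher after chitin than after either other elicitor, AT5G04960 and PMEPCRF lower, and AT5G20860 is lower after OGs than after cellobiose.

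The remaining brighter members were not called in any comparison. AT3G43270 had 6.83, 6.89 and 6.75 on the chitin arrays, 6.91, 7.06 and 6.99 on the cellobiose arrays, 6.82, 6.73 and 6.70 on the OGs arrays, and 7.03, 6.74 and 6.87 on the control arrays, and its groups overlapped the control throughout. AT1G02810 changed by -0.05 after chitin, -0.09 after cellobiose and -0.18 after OGs, with adjusted p-values of 0.644 or more (limma). AT5G19730 stood at -0.26, -0.08 and -0.13 after the 3 elicitors, AT3G05620 at -0.05, 0.02 and -0.24, and AT5G51490 at -0.41, -0.08 and -0.18. AT5G64640 stood at -0.28, -0.42 and -0.33 and AT2G43050 at -0.08, -0.38 and -0.23 in the same order, none called. The SE of the last 2 genes was 0.18 and 0.14. Without control replicate 2, AT5G64640 was called after chitin (-0.56, adjusted p = 0.0327, limma) and cellobiose (-0.70, adjusted p = 0.0432). AT5G51490 was called after chitin without control replicate 3 (-0.62, adjusted p = 0.0374), and AT5G19730 without chitin replicate 1 (-0.39, adjusted p = 0.0398). Of the dim members, AT3G59010 had 4.10, 4.31 and 4.36 on the chitin arrays against 4.05, 4.13 and 3.86 on the control arrays (0.24 ± 0.10 SE, adjusted p = 0.179, limma).

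Other genes of the pectin pathway were read from lists of loci. Inhibitors of pectin methylesterases moved in both directions after chitin, with 1 of 13 measured genes higher and 3 lower, and a median change of -0.16, beside -0.02 for all 13286 genes, of which 4.55 percent rose and 4.80 percent fell. AT3G47380, an inhibitor linked to immunity against Botrytis, had 7.84 ± 0.27 after chitin, 6.66 ± 0.35 after cellobiose, 7.06 ± 0.28 after OGs and 5.76 ± 0.35 in the control (SD, n = 3). It rose by 2.08 ± 0.10 (SE, adjusted p = 6.15e-07, limma), 0.90 (0.00108) and 1.30 (0.000291) after the 3 elicitors. AT1G62770 fell by 1.70 ± 0.22 after chitin (SE, adjusted p = 0.000586), AT5G51520 by 1.02 (0.00888) and AT5G62350 by 0.42 (0.0322). Of all genes 1.37 percent rose and 0.572 percent fell after cellobiose, and 1.39 percent rose and 0.798 percent fell after OGs. After cellobiose 2 inhibitors rose and 0 fell (2 at an unadjusted p under 0.05, limma), with AT1G62760 at 0.69 (adjusted p = 0.00231) from a level under log2 5 in all groups. After OGs 1 rose and AT5G51520 fell by 1.13 (adjusted p = 0.0196).

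Of 4 subtilases, proteases of the kind that trim the pro-region, SBT3.5, which processes a pectin methylesterase in roots, rose after each elicitor. It had 6.91 ± 0.14 after chitin, 6.58 ± 0.09 after cellobiose, 6.76 ± 0.18 after OGs and 6.16 ± 0.11 in the control (SD, n = 3), changes of 0.75 (adjusted p = 0.000324, limma), 0.42 (0.0375) and 0.60 (0.00656). SBT4.12 rose by 0.32 after chitin (adjusted p = 0.0203).

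Among enzymes that act on demethylated pectin, 5 of 23 measured pectate lyase-like genes fell after chitin (21.7 percent, against 4.80 percent of all genes) and 1 rose (4.35 percent, against 4.55 percent), with a list median of -0.08, beside -0.02. The gene that rose, AT5G04310, had 8.5 ± 0.36 after chitin and 7.57 ± 0.37 in the control (SD, n = 3), a change of 0.93 (adjusted p = 0.0228, limma). AT4G24780 had 10.04 ± 0.20 after chitin and 10.74 ± 0.25 in the control (SD, n = 3), a change of -0.70 (adjusted p = 0.00203, limma), AT3G09540 changed by -0.69, AT5G48900 by -0.62 and AT1G04680 by -0.53. After cellobiose AT4G24780 fell by 0.49 (adjusted p = 0.0457) and after OGs AT3G27400 fell by 0.49 (adjusted p = 0.0196, limma). The means of AT3G27400 were 4.93 after OGs and 5.43 in the control, close to background. In both cases 0 were higher, also at an unadjusted p under 0.05, where 5 of 23 (21.7 percent) were lower (limma). Of all genes 6.77 percent were lower at that level after cellobiose and 7.41 percent after OGs. Of 30 measured polygalacturonase-like genes limma called 0 after any elicitor. At an unadjusted p under 0.05, 1 was higher and 5 lower (16.7 percent) after chitin. At that level 3 were higher (10 percent) and 1 lower after cellobiose, and 1 higher and 0 lower after OGs. Of all genes 8.08 percent were higher and 12 percent lower at that level after chitin. The shares of all genes were 8.51 and 6.77 percent after cellobiose, and 7.23 and 7.41 percent after OGs.

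Of 6 measured pectin acetylesterase genes, AT3G09405 had 7.06 ± 0.38 after chitin, 6.23 ± 0.18 after cellobiose, 5.45 ± 0.12 after OGs and 5.03 ± 0.23 in the control (SD, n = 3). It rose by 2.04 ± 0.12 (SE, adjusted p = 2.87e-06, limma) after chitin and by 1.2 (0.000649) after cellobiose, and stood at 0.42 (0.109) after OGs. AT1G57590 fell by 0.60 and AT3G05910 by 0.39 after chitin. Homogalacturonan synthesis was represented by GAUT15 alone of 25 listed genes and its methylation by AT3G49720 alone of 4, and neither was called (-0.18 and -0.22 after chitin). The wall-sensing receptor kinase genes FER and THE1, 2 of 7 listed pectin-related receptors, stood at 0.02 and -0.17 after chitin and were not called. Neither of the 2 listed polygalacturonase inhibitor genes was measured.

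**Figure D5:**
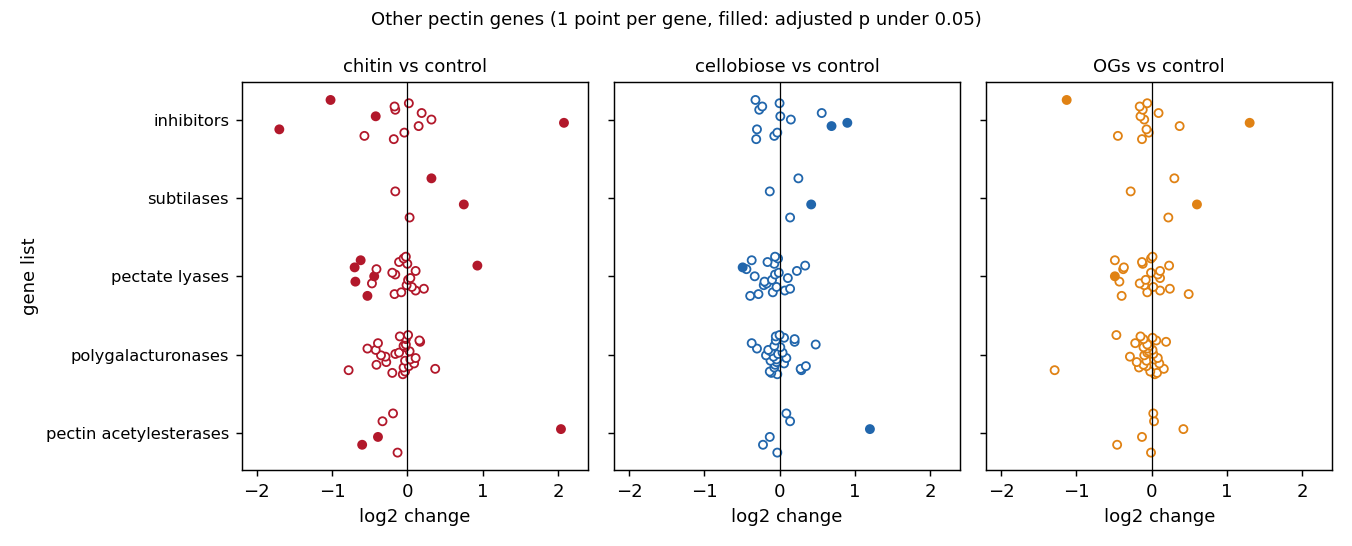
Log2 change against the control (horizontal axis) of other pectin genes by list (rows), 1 point per measured gene, after chitin, cellobiose and OGs; filled points have an adjusted p under 0.05 (limma). The inhibitor AT3G47380 and the acetylesterase AT3G09405 lie near 2 after chitin, the inhibitor AT1G62770 near -1.7, and no polygalacturonase-like gene is filled.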

How the data were processed

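RNA from roots of 4 groups with 3 biological replicates each was hybridised to 12 Affymetrix ATH1 arrays. The authors deposited log2 intensities, 1 per probe set and array. The series design text names GCRMA, which normalizes between arrays, and the submitters' processing notes name Affymetrix Expression Console. The step that made the deposited values and all versions are not stated. GCRMA assumes that most transcripts do not change. The 64 control probe sets were left out and 22746 others tested without a filter. The annotation gave 13513 of these 1 gene, 503 several, and did not list 8730; 13436 of those with 1 gene matched the gene table.

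One limma model (version 3.58.1, lmFit and eBayes, R 4.3.3) held all arrays, with a term for each of the 4 groups and one for the replicate number (the block), since the design text formed its ratios between paired samples. It had 6 residual degrees of freedom, and each contrast had its own Benjamini-Hochberg adjustment. Means carry the SD of 3 arrays. For members, a called change between a group mean under log2 5 and one above it is also given as a lower bound, with the dimmer mean raised to 5. This bound does not take the spread of the arrays into account. The number of arrays limits the precision.

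All called members were named with every array's value, and of the other members AT3G59010 and AT3G49220, beside those given for range, overlap or position, which were chosen after their values were seen; of each pathway list up to 4 called genes per elicitor, by adjusted p, and AT5G04310, also chosen after its values were seen. The members and lists were chosen with earlier results of these data known. The fit was tested on simulated data without a replicate effect, with 50 probe sets changed after chitin at each of 4 sizes. It recovered 28 of 50 at log2 0.5, 49 at 1, 45 at 1.5 and 50 at 2, with 7 false calls. Changes near log2 0.5 were thus often missed there. Alternatives were no replicate block, quantile normalization, median centring, a filter on dim probe sets, an intensity trend, only the 2 groups compared, averaged probe sets and leaving out each array.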

Additional observations from a re-analysis of the deposited data

How the results depend on the processing

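All 4 members called after chitin against the control were called under each of the 19 alternatives. Leaving out each array in turn, the count of called members ranged from 4 to 6 after chitin, 0 to 3 after cellobiose and 0 to 3 after OGs, from 2 to 4 for OGs against chitin, 0 to 2 for OGs against cellobiose, 2 to 6 for chitin against cellobiose, and 5 to 7 in the F test. The cause of these shifts was not tested. Without the replicate block the count was 1 for OGs against the control and 2 for OGs against cellobiose, where AT5G51500 was added; it was 2 for cellobiose against the control, without AT5G04960, and 8 in the F test, with AT5G09760 (adjusted p = 0.0462) and AT5G51500 (0.0362) added (limma). In the 18 pairings of same-numbered arrays from different groups, deviations from the group means correlated at -0.23 to 0.252, over 0.1 in 6, against -0.363 to 0.445 for different numbers, so the numbers are not shown to pair the arrays. Fitting only the 2 groups compared gave a count of 2 for OGs against chitin and 2 for OGs against cellobiose. For AT3G59010, near background, changes of 0.08 after cellobiose and 0.01 after OGs turned with arrays left out, with ranges of -0.01 to 0.18 and -0.08 to 0.07. Median centring and quantile normalization kept every count of called members but that of chitin against cellobiose, 3 with median centring, where PMEPCRF dropped out. Over all probe sets, median centring gave 292 up and 237 down after cellobiose, beside 351 and 165, 846 up and 316 down for chitin against cellobiose, beside 667 and 572, and 186 up and 146 down for OGs against cellobiose, beside 129 and 170. Each member had 1 probe set, so averaging probe sets changed only the adjustment.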
